A study of Homo sapiens with 8 samples.

Results

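The transcription factors that set the myeloid lineage were followed in human acute myeloid leukaemia (AML) cells after knockdown of PRMT9, an arginine methyltransferase. The 9 genes were CEBPA, CEBPB, CEBPD, CEBPE, SPI1, RUNX1, GFI1, KLF4 and EGR1. They were taken by gene symbol from the Molm13 count table and by the same gene identifier from the THP1 table, out of 57992 and 58174 genes listed there. Molm13 and THP1 are AML cell lines of monocytic type that carry fusions of KMT2A (MLL). Each line was grown with a doxycycline-induced short hairpin RNA, either a control hairpin (shCtrl, genotype labelled WT) or a hairpin against PRMT9 (shPRMT9), and doxycycline was given to all 4 groups. Polyadenylated RNA of 2 libraries per group was sequenced, 8 libraries in all. The labels do not say whether libraries 1 and 2 came from separate cultures or, for shPRMT9, from separate hairpins, so the p-values measure the spread between these libraries. No uninduced cells were among the libraries analysed here.

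C/EBPα, encoded by CEBPA, opens the granulocyte and monocyte programme, and its relatives C/EBPβ, C/EBPδ and C/EBPε act later, in emergency granulopoiesis, inflammation and terminal granulocyte maturation. PU.1, encoded by SPI1, works with C/EBPα and favours the monocyte and macrophage fate as its level rises, with EGR1 and KLF4 on the same side, whereas GFI1 is a repressor that favours granulocytes and opposes PU.1 and EGR1. RUNX1 binds DNA together with CBFβ and regulates SPI1.

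The libraries held 18720950 to 27356870 counts over all genes. PRMT9 itself was counted 332 and 289 times in Molm13 shCtrl and 41 and 56 times in Molm13 shPRMT9, and 317 and 352 times in THP1 shCtrl against 60 and 68 times in THP1 shPRMT9. The 8 genes of a monocytic leukaemia list, 7 or 8 of them at a mean of 1 CPM (counts scaled to the TMM-adjusted library size) or more in every group, summed to 870.1 to 874.9 CPM in Molm13 shCtrl and 1513 to 1549 in Molm13 shPRMT9, and to 2093 to 2099 and 3347 to 3497 CPM in the matching THP1 groups. LYZ made up most of that sum, with 12423 to 21516 counts in Molm13 and 48446 to 79446 in THP1. The 6 erythroid markers summed to at most 0.2728 CPM in any library, the 5 megakaryocyte markers to at most 1.08 and the 5 T cell markers to at most 2.806. The 6 B cell markers summed to 39.69 to 42.89 CPM in Molm13 and to 4.286 to 14.43 in THP1, nearly all of it PAX5, while MS4A1 was at 0 or 1 count. In the labels, THP1 library titles hold the added letters OCI, whose meaning is not given. The 8 HOXB genes summed to 13.58 to 15.72 CPM in the THP1 libraries and to at most 0.5294 in Molm13. In THP1, HOXB2, HOXB5, HOXB8 and HOXB9 were at 0 or 1 count. A list of 5 genes, HOXA genes and MEIS1, ran the other way, at 236.7 to 244.8 CPM in Molm13 and 93.61 to 103.4 in THP1. Of that list, MEIS1 held 1452 to 1811 counts in Molm13 and 4 to 9 in THP1. HOXA9 held 1215 to 1599 and 1366 to 1539. The identity of the lines was not tested.

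The 9 genes covered a wide range of levels before knockdown. Levels are given in RPKM, reads scaled to exon length and to library size, so that genes of unlike length can be set side by side. In Molm13 shCtrl the mean level was 144 ± 0.964 for CEBPA (SD, n = 2, as for all means here), 50.03 ± 0.313 for SPI1, 38.9 ± 0.337 for GFI1 and 20.1 ± 0.0397 for RUNX1. CEBPA stood above 98.5% of the 19288 genes tested over both lines. CEBPB at 5.25 ± 0.228, EGR1 at 5.20 ± 0.217 and CEBPD at 5.07 ± 0.585 followed, and the libraries of these neighbours overlapped. KLF4 was lower at 3.60 ± 0.351, and CEBPE, with 3 and 4 counts, was at 0.113 ± 0.0260.

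In THP1 shCtrl the order was CEBPA at 134 ± 2.87, SPI1 at 116 ± 2.82, GFI1 at 49.1 ± 0.201, CEBPD at 26.9 ± 1.77 and RUNX1 at 18.2 ± 0.187 RPKM. Below these came CEBPB at 8.73 ± 1.403 and KLF4 at 6.86 ± 0.348. EGR1 at 1.38 ± 0.0972 and CEBPE at 1.33 ± 0.428 were the lowest, and their libraries overlapped. The RPKM of RUNX1 rests on 15574 bases of joined exons, more than any 1 transcript is likely to use, which lowers its value against the other genes.

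Between the control groups, 6 of the 9 genes were higher in THP1 and 3 were lower at an adjusted p below 0.05, where 82.8% of all genes differed in either direction. Each adjusted p comes from the quasi-likelihood test of edgeR, adjusted by Benjamini and Hochberg's method over every gene tested. CEBPE was 11.4-fold higher in THP1 on a fit that rests on 7 counts in Molm13, CEBPD 5.30-fold, SPI1 2.32-fold, KLF4 1.90-fold, CEBPB 1.66-fold and GFI1 1.26-fold. EGR1 was 3.76-fold lower in THP1, RUNX1 1.11-fold and CEBPA 1.08-fold. The call for CEBPA was lost without library 2 of THP1 shCtrl, with a log2 difference of -0.07 and an edgeR adjusted p of 0.0643. The lines came in separate tables, so line and handling cannot be told apart.

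**Figure D1:**
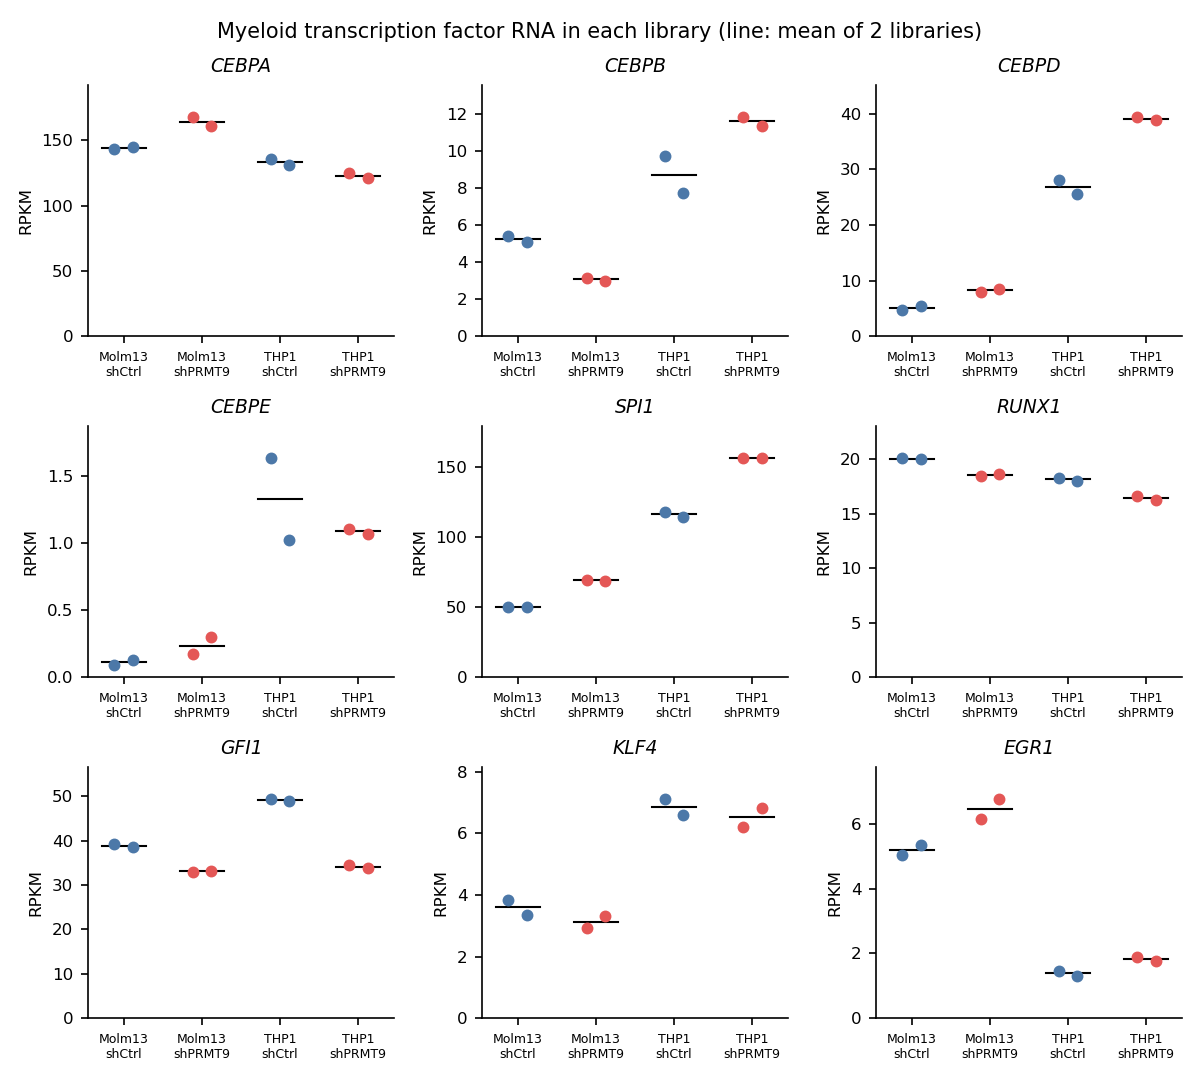
RPKM of the 9 genes in each library, 1 panel per gene, with every vertical axis starting at 0. Points are libraries (blue shCtrl, red shPRMT9) and the bar is the mean of 2. SPI1 rose from a mean of 50.03 to 69.0 in Molm13 and from 116 to 156 in THP1, while CEBPB moved down in Molm13 and up in THP1.

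Knockdown of PRMT9 moved most of the 9 genes, mostly by less than 1.5-fold. In Molm13, 8 of the 9 could be tested, and CEBPA, CEBPD, SPI1 and EGR1 rose while CEBPB, RUNX1 and GFI1 fell. That is 4 higher and 3 lower of 8, where 33.4% of the 16446 genes tested rose and 33.5% fell. In THP1 all 9 could be tested, and CEBPB, CEBPD, SPI1 and EGR1 rose while CEBPA, RUNX1 and GFI1 fell, where 19% of the 16294 genes tested rose and 18.6% fell. The median absolute log2 change was 0.27 for the 8 genes tested in Molm13 against 0.39 over all genes, and 0.41 for the 9 in THP1 against 0.19 over all genes. A gene was counted as differentially expressed (DEG), after the study's own rule, when its change also exceeded 1.5-fold and its level 1 RPKM in at least 1 library. In Molm13, 1 of the 8 was a DEG that rose, CEBPD, and 1 a DEG that fell, CEBPB, where 11.4% and 11.3% of all genes were. In THP1 the count was 0, as it was with DESeq2 and limma voom, where 3.83% of all genes were DEGs that rose and 2.39% DEGs that fell. At an unadjusted p below 0.05 the same 7 genes were past the threshold in THP1, and without library 1 of THP1 shCtrl the count of DEGs was 1, CEBPD. In bulk RNA, a change in the share of cells that express a gene and a change in RNA per cell cannot be told apart.

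**Figure D2:**
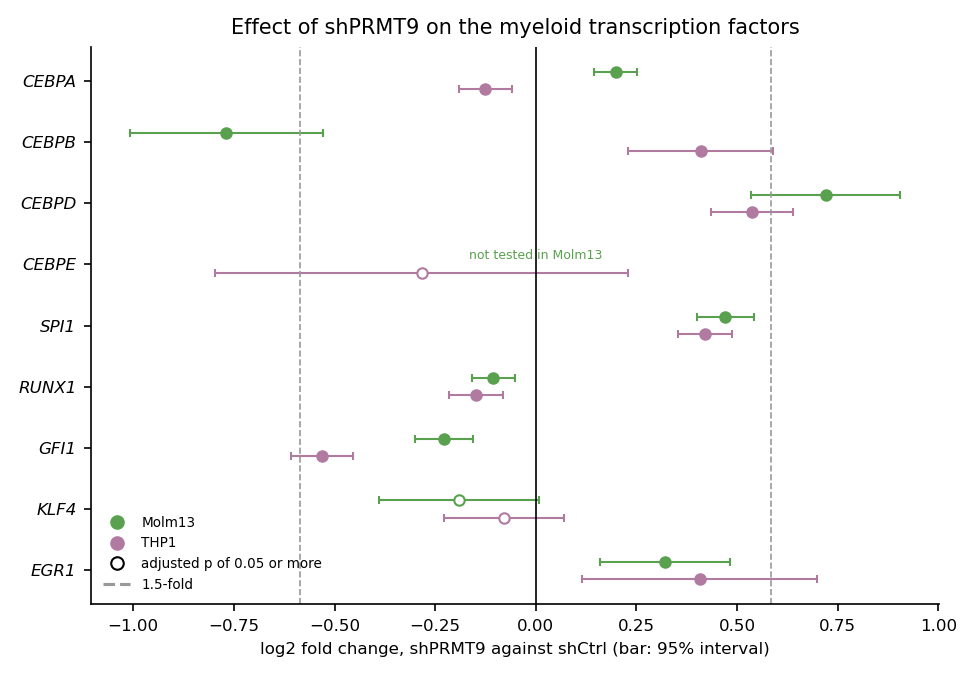
Log2 fold change of each gene, shPRMT9 against shCtrl, in Molm13 (green) and THP1 (purple), with 95% intervals of the edgeR fit. Filled points have an adjusted p below 0.05 and dashed lines mark a 1.5-fold change. CEBPB and CEBPA lie on opposite sides of 0 in the lines, and CEBPB and CEBPD in Molm13 are the points past 1.5-fold.

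CEBPA (ENSG00000245848, hg38 chr19:33299934-33302564, minus strand) encodes the factor that commits progenitors to the myeloid lineage, and is often mutated in AML. It stood at 143 and 145 RPKM in Molm13 shCtrl and at 168 and 161 in Molm13 shPRMT9. THP1 libraries read 136 and 132 in shCtrl and at 125 and 121 in shPRMT9. In neither line did the groups overlap, and the direction was upward in Molm13 and downward in THP1. The log2 change was 0.20 (SE 0.0262, edgeR adjusted p = 7.60e-09) in Molm13 and -0.12 (SE 0.0321, edgeR adjusted p = 0.00256) in THP1. The difference of the effects, THP1 minus Molm13, was -0.31 (95% interval -0.39 to -0.23, edgeR adjusted p = 2.34e-10). Antisense genes that overlap CEBPA held at most 148 counts in any library, against 7458 to 9559 for CEBPA, and the strand setting of the counting is not given in the sources used here.

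CEBPB (ENSG00000172216, chr20:50190734-50192689, plus strand) encodes C/EBPβ, which acts in macrophages and in granulocyte production under infection. It stood at 5.41 and 5.09 RPKM in Molm13 shCtrl and fell to 3.17 and 2.98 in Molm13 shPRMT9, on 216, 195, 117 and 124 counts. In THP1 it stood at 9.72 and 7.74 in shCtrl and rose to 11.8 and 11.4 in shPRMT9, on 488, 418, 579 and 550 counts. The groups did not overlap in either line, although the THP1 control libraries lay farther apart than any other pair of this gene. CEBPB was 1.70-fold lower in Molm13 (log2 change -0.77, SE 0.119, edgeR adjusted p = 2.63e-07) and 1.33-fold higher in THP1 (log2 change 0.41, SE 0.0877, edgeR adjusted p = 0.00042). The effects differed by 1.19 on the log2 scale (95% interval 0.89 to 1.49, edgeR adjusted p = 6.47e-11). Without library 2 of THP1 shCtrl the THP1 change was 0.24 (edgeR adjusted p = 0.0464).

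CEBPD (ENSG00000221869, chr8:47736909-47739086, minus strand) encodes C/EBPδ, which is induced in inflammation and during macrophage activation. It stood at 4.66 and 5.49 RPKM in Molm13 shCtrl and at 8.00 and 8.58 in Molm13 shPRMT9. The THP1 values were 28.1 and 25.6 in shCtrl and at 39.4 and 38.8 in shPRMT9. Every knockdown library lay above both controls of its line. CEBPD rose 1.65-fold in Molm13 (log2 change 0.72, SE 0.0919, edgeR adjusted p = 3.48e-09) and 1.45-fold in THP1 (log2 change 0.54, SE 0.0497, edgeR adjusted p = 8.28e-10). The effects differed by -0.17 (95% interval -0.38 to 0.04, edgeR adjusted p = 0.205). That difference passed the threshold without library 2 of Molm13 shCtrl, at -0.33 (adjusted p = 0.035), and without library 2 of THP1 shCtrl, at -0.27 (adjusted p = 0.0406).

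CEBPE (ENSG00000092067, chr14:23117304-23119616, minus strand) encodes C/EBPε, which drives secondary granule genes late in granulocyte maturation. Molm13 libraries held 3 and 4 counts in shCtrl and 5 and 10 in shPRMT9, too few for a test. THP1 libraries held 65 and 44 counts in shCtrl and 43 and 41 in shPRMT9. The THP1 groups overlapped once scaled, at 1.63 and 1.03 against 1.11 and 1.07 RPKM, and the log2 change was -0.28 with a 95% interval from -0.80 to 0.23 (edgeR adjusted p = 0.412). The interval takes in a 1.5-fold fall.

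Because the C/EBP proteins bind the same letters as dimers, the makeup of their RNA was also compared, as each gene's share of the summed RPKM of the 4. In Molm13, CEBPA made up 93.1% to 93.7% in all 4 libraries. CEBPB made up 3.53% and 3.28% in shCtrl and 1.77% and 1.72% in shPRMT9, and CEBPD 3.03% and 3.53% against 4.47% and 4.96%. The ratio of CEBPD to CEBPB RPKM was 0.861 and 1.08 in Molm13 shCtrl and 2.53 and 2.88 in Molm13 shPRMT9, and 2.89 and 3.31 in THP1 shCtrl against 3.33 and 3.41 in THP1 shPRMT9. In THP1, CEBPA made up 77.5% and 79.3% in shCtrl and 70.5% and 70.3% in shPRMT9. CEBPD went from 16.1% and 15.4% to 22.2% and 22.5% there, and CEBPB from 5.55% and 4.66% to 6.69% and 6.60%. CEBPA was thus the most abundant of these 4 RNAs in every library, and its share of the 4 was lower in THP1 shPRMT9 than in any other group. The C/EBP relatives CEBPG and DDIT3 were left out of these shares. CEBPG held 3460 and 3472 counts in Molm13 shCtrl and 1754 and 1992 in shPRMT9, and 2828 and 3117 against 2294 and 2223 in THP1. Shares of a sum that takes in CEBPG would be lower.

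**Figure D3:**
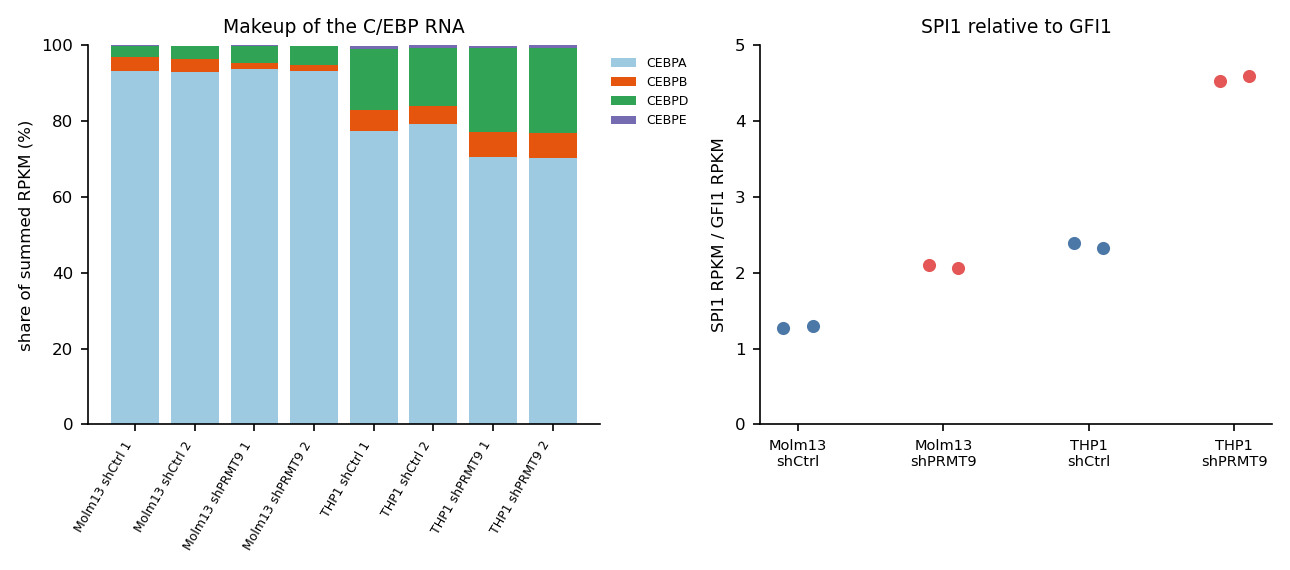
Left, share of the summed RPKM of CEBPA, CEBPB, CEBPD and CEBPE in each library, in percent. Right, SPI1 RPKM divided by GFI1 RPKM, a point per library (blue shCtrl, red shPRMT9). The CEBPD share is higher in both knockdown groups, and the SPI1 to GFI1 ratio reads 1.27 and 1.30 against 2.11 and 2.07 in Molm13 and 2.39 and 2.33 against 4.53 and 4.597 in THP1.

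SPI1 (ENSG00000066336, chr11:47354860-47378576, minus strand) encodes PU.1, the ETS-family factor that activates receptors and enzymes of monocytes and macrophages. It stood at 49.8 and 50.2 RPKM in Molm13 shCtrl and at 69.2 and 68.8 in Molm13 shPRMT9. In THP1 it stood at 118 and 114 in shCtrl and at 156 and 156 in shPRMT9. The knockdown libraries lay above the controls in both lines, by several times the gap between libraries of a group. SPI1 rose 1.39-fold in Molm13 (log2 change 0.47, SE 0.0353, edgeR adjusted p = 8.49e-16) and 1.34-fold in THP1 (log2 change 0.42, SE 0.0328, edgeR adjusted p = 2.40e-11). The 95% interval of the difference between the lines ran from -0.13 to 0.06 on the log2 scale (edgeR adjusted p = 0.598). The summed level of the monocytic list, mostly LYZ, was higher with it in both lines, although FCGR1A of that list fell in Molm13 and had a log2 change of -0.01 in THP1, where CD4 held 882 and 867 counts in shCtrl and 855 and 846 in shPRMT9. The part of this list in the SPI1 result was not tested.

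GFI1 (ENSG00000162676, chr1:92474762-92486876, minus strand) encodes a zinc finger repressor that recruits LSD1 (KDM1A) and CoREST to genes of the monocyte programme, SPI1 targets among them. It stood at 39.1 and 38.7 RPKM in Molm13 shCtrl and at 32.8 and 33.3 in Molm13 shPRMT9. In THP1 it stood at 49.3 and 49.0 in shCtrl and at 34.4 and 33.9 in shPRMT9. All knockdown libraries lay below the controls of their line, and the means of the knockdown groups were 33.1 in Molm13 and 34.1 in THP1. GFI1 was 1.17-fold lower in Molm13 (log2 change -0.23, SE 0.0357, edgeR adjusted p = 3.48e-07) and 1.45-fold lower in THP1 (log2 change -0.53, SE 0.0374, edgeR adjusted p = 2.99e-12). The fall was larger in THP1, by -0.29 on the log2 scale (95% interval -0.40 to -0.19, edgeR adjusted p = 1.59e-06). With SPI1 up and GFI1 down, the ratio of their RPKM was 1.27 and 1.30 in Molm13 shCtrl and 2.11 and 2.07 in shPRMT9, and 2.39 and 2.33 in THP1 shCtrl and 4.53 and 4.597 in shPRMT9.

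RUNX1 (ENSG00000159216, chr21:34787801-36004667, minus strand) encodes a DNA-binding subunit of core binding factor. It stood at 20.1 and 20.04 RPKM in Molm13 shCtrl and at 18.5 and 18.6 in Molm13 shPRMT9. The level in THP1 was 18.3 and 18.03 in shCtrl and at 16.6 and 16.3 in shPRMT9. These were small falls with no overlap of groups. RUNX1 was 1.08-fold lower in Molm13 (log2 change -0.11, SE 0.0264, edgeR adjusted p = 0.000496) and 1.11-fold lower in THP1 (log2 change -0.15, SE 0.0324, edgeR adjusted p = 0.000541). The interval of the difference between the lines ran from -0.11 to 0.05 (edgeR adjusted p = 0.655). Pseudogenes lie within the RUNX1 locus, of which EZH2P1 held up to 135 counts in Molm13 and at most 1 in THP1.

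KLF4 (ENSG00000136826, chr9:107484852-107490482, minus strand) encodes a Krüppel-like factor of monocyte differentiation that acts downstream of PU.1. It stood at 3.85 and 3.35 RPKM in Molm13 shCtrl and at 2.94 and 3.32 in Molm13 shPRMT9. In THP1 it stood at 7.10 and 6.61 in shCtrl and at 6.22 and 6.82 in shPRMT9. The Molm13 groups nearly touched, and the THP1 groups overlapped. The log2 change was -0.19 in Molm13 (95% interval -0.39 to 0.01, edgeR adjusted p = 0.0854) and -0.08 in THP1 (95% interval -0.23 to 0.07, edgeR adjusted p = 0.442). Without library 2 of Molm13 shCtrl the Molm13 change was -0.28 and passed the threshold (adjusted p = 0.0241).

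EGR1 (ENSG00000120738, chr5:138465490-138469315, plus strand) encodes an immediate-early factor that is switched on within minutes by the ERK pathway and takes part in macrophage differentiation. It stood at 5.05 and 5.35 RPKM in Molm13 shCtrl and at 6.14 and 6.75 in Molm13 shPRMT9. THP1 held 1.45 and 1.32 in shCtrl and at 1.90 and 1.78 in shPRMT9, on 117, 114, 149 and 138 counts. The groups did not overlap in either line. EGR1 rose 1.25-fold in Molm13 (log2 change 0.32, SE 0.0802, edgeR adjusted p = 0.000517) and 1.33-fold in THP1 (log2 change 0.41, SE 0.142, edgeR adjusted p = 0.0242). The THP1 call was lost with DESeq2 (adjusted p = 0.187), without a filter on low counts (0.0559), without library 2 of shCtrl (0.151) and without library 1 of shPRMT9 (0.112). The interval of the difference between the lines ran from -0.22 to 0.42 (adjusted p = 0.696).

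Promoter letters were read from the RefSeq promoter table (GRCh38.p14) for 7 of the 9 genes with 10 windows, each as the 250 bases before an annotated start. SPI1 had no window there, and CEBPD was left out of the reading. The windows below are shown for 3 genes that moved the same way in both lines and whose windows hold letters bound by the families of the members or, for EGR1, by the serum response factor. Capitals mark the motifs, and the sequences run 5′ to 3′ on the strand of the gene.
EGR1, chr5:138465229-138465478, plus strand: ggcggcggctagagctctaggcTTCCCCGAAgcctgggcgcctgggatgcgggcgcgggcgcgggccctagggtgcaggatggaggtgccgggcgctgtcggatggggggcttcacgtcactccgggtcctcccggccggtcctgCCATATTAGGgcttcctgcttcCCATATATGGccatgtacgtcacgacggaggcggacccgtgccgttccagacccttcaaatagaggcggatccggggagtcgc
GFI1, chr1:92486100-92486349, minus strand: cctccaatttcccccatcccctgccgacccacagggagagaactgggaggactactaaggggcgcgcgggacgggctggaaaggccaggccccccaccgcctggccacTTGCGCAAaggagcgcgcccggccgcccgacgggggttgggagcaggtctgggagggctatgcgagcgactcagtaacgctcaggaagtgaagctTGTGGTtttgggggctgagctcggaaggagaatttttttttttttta
RUNX1, chr21:34888700-34888949, minus strand: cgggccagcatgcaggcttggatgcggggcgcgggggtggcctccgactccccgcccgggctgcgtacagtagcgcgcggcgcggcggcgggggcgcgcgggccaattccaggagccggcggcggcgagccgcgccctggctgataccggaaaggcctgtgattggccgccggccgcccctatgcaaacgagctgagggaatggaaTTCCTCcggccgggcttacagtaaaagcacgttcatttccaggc
In EGR1 the capitals are a GAS element 228 to 220 bases before the start and CArG boxes, the site of serum response factor, at 105 to 96 and 83 to 74 bases. In GFI1 they are a C/EBP motif at 142 to 135 bases and a RUNX motif at 47 to 42 bases before a start that lies inside the longest transcript, and in RUNX1 a PU.1 motif on the other strand at 44 to 39 bases before a start inside the gene. Every motif was searched on both strands. The C/EBP letters were TTGCNNAA and those of GAS were TTCNNNGAA, and the core of ISRE was GAAANNGAAA. PU.1 was searched as GAGGAA. For RUNX the letters were TGTGGT, and for the TATA box, which lies near the start of many genes, they were TATAAA. The CArG box is given by its name alone, and its letters are those in capitals in the EGR1 window. No motif overlapped another in the windows shown. Of 35116 such windows in the table, 9.05% held the C/EBP letters, 23.6% those of PU.1, 11.0% RUNX, 6.57% GAS, 3.02% the ISRE core, 10.7% the TATA box and 1.16% a CArG box. Of the windows not shown, KLF4 held the PU.1 letters, CEBPE those of PU.1 and GAS, CEBPA and 1 window of CEBPB a TATA box, and 1 further window of GFI1 the PU.1 letters. A match is a description of letters, and binding was not measured.

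The relatives of the 9 genes were counted from a list of 12 paralogs, of which 9 could be tested in Molm13 and 7 in THP1. In Molm13, 5 rose and 3 fell (median log2 change 0.38, against 0.00047 over all genes), and in THP1 1 rose and 1 fell (median 0.00087, against -0.00063 over all genes). Over all genes tested, 33.4% rose and 33.5% fell in Molm13, and 19% rose and 18.6% fell in THP1. DDIT3, a C/EBP relative induced by endoplasmic reticulum and amino acid stress, had 294 and 264 counts in Molm13 shCtrl and 524 and 624 in shPRMT9, a log2 rise of 1.04, and rose by 0.42 in THP1. CEBPG, a C/EBP relative that lacks an activation domain, went from 3460 and 3472 counts to 1754 and 1992 in Molm13, a log2 change of -0.89, and changed by -0.30 in THP1. EGR3 and EGR4, relatives of EGR1 named here after their values were seen, rose in Molm13 from 4 and 3 counts to 24 and 30 and from 1 and 1 to 21 and 11. In THP1 both stayed at 1 to 4 counts and could not be tested in the fit of that line.

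Of 14 partners and cofactors of the members, 5 of 12 tested rose and 2 fell in Molm13, with a median log2 change of -0.0019. Of all genes tested there, 33.4% rose and 33.5% fell. In THP1, 2 of 14 rose and 5 fell, with a median of -0.09, where 19% of all genes rose and 18.6% fell. With library size alone as the scaling, the THP1 counts of the list were 0 and 6. CBFB, the partner subunit of RUNX1, had 3422 and 3245 counts in Molm13 shCtrl and 1924 and 2246 in shPRMT9, a log2 change of -0.68 (SE 0.0344, edgeR adjusted p = 1.33e-21), with -0.12 in THP1 (adjusted p = 0.0110). NAB2, a corepressor of EGR1, went from 326 and 274 to 456 and 473 counts in Molm13, a log2 rise of 0.63, with -0.10 in THP1 (adjusted p = 0.413). CBFB and RUNX1 thus both fell in both lines, and in Molm13 the change was -0.68 for CBFB beside -0.11 for RUNX1. The paralogs of RUNX1, named after their values were seen, did not all follow. RUNX3 changed by 0.38 in Molm13 and 0.00087 in THP1, and RUNX2 by -0.10 and 0.03.

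Of 24 other haematopoietic transcription factors, 13 of 18 tested rose and 5 fell in Molm13 (median 0.21), and 9 of 22 rose and 11 fell in THP1 (median -0.13). The shares of all genes that rose and fell were 33.4% and 33.5% in Molm13 and 19% and 18.6% in THP1. LMO2, a bridging factor of blood progenitors, rose in Molm13 from 2224 and 2174 to 4035 and 4541 counts (log2 change 0.96), with -0.05 in THP1 (adjusted p = 0.368). BATF3, a factor of dendritic cells, fell in Molm13 from 147 and 172 to 53 and 61 counts (log2 change -1.48), with -0.41 in THP1 (adjusted p = 0.142). NFE2, an erythroid and megakaryocyte factor, moved in opposite directions, from 72 and 64 to 35 and 49 counts in THP1 (log2 change -0.60, adjusted p = 0.0422) and by 0.36 in Molm13.

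**Figure D4:**
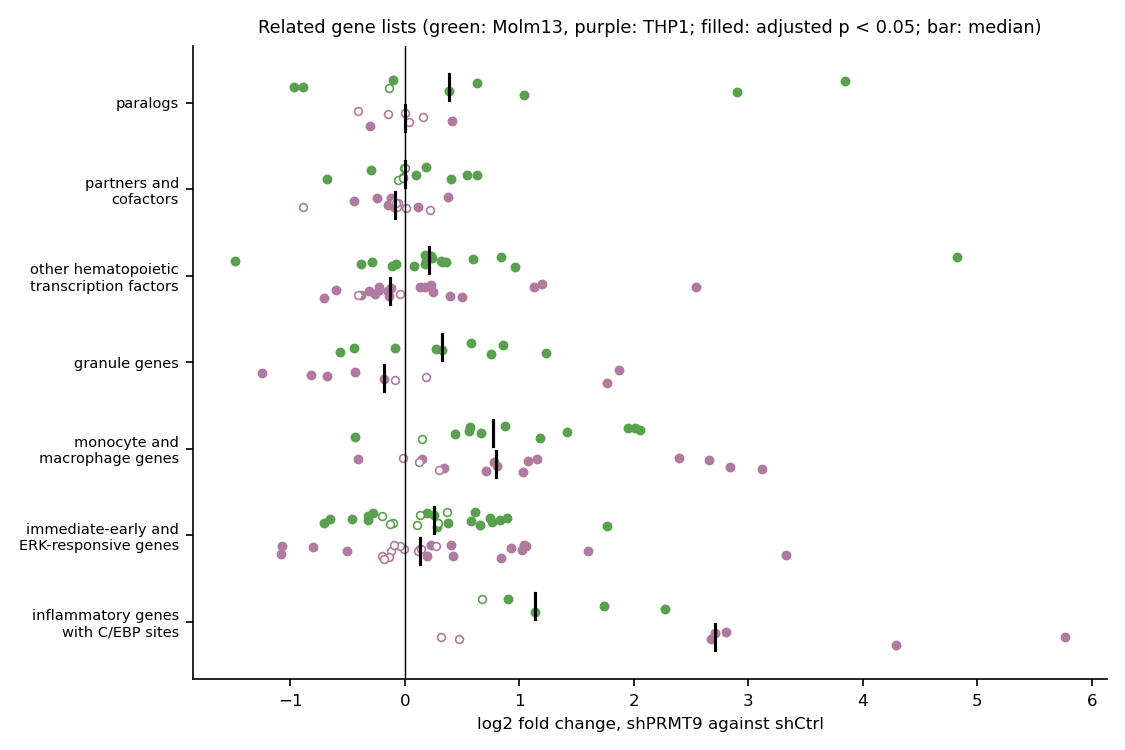
Log2 fold change, shPRMT9 against shCtrl, of every tested gene of the 7 lists of related genes, a point per gene, Molm13 in green above THP1 in purple. Filled points have an adjusted p below 0.05 and the black bar is the median, which for monocyte and macrophage genes lies at 0.77 in Molm13 and 0.79 in THP1.

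Genes that these factors are known to drive were counted next. Of 17 monocyte and macrophage genes, many of them PU.1 targets, 10 of 12 tested rose and 1 fell in Molm13 (median log2 change 0.77), and 12 of 16 rose and 1 fell in THP1 (median 0.79). Among all genes tested, 33.4% rose and 33.5% fell in Molm13, and 19% rose and 18.6% fell in THP1. CSF1R, the receptor of macrophage colony-stimulating factor and a PU.1 target, went from 307 and 280 to 1144 and 1297 counts in Molm13, a log2 rise of 2.06 (SE 0.0640, edgeR adjusted p = 2.57e-29), and rose by 1.03 in THP1. CYBB, the catalytic subunit of the phagocyte oxidase, went from 402 and 442 to 3459 and 3419 counts in THP1, a log2 rise of 3.12, and rose by 0.88 in Molm13. NCF1, another oxidase subunit, rose by 2.01 in Molm13 and 2.66 in THP1, but near-identical pseudogenes make its counts uncertain. The genes that fell were FCGR1A in Molm13, by 0.44 on the log2 scale, and TLR4 in THP1, by 0.41, both named after their values were seen.

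Granule genes, which C/EBP factors and GFI1 serve in granulocytes, split by gene and by line. Of 14 listed, 9 could be tested in each line, of which 6 rose and 3 fell in Molm13 (median 0.32) and 2 rose and 5 fell in THP1 (median -0.18). The matching shares over all genes were 33.4% and 33.5% in Molm13 and 19% and 18.6% in THP1. These list counts take in the receptor gene CSF3R beside S100A8 and S100A9, all of which rose in Molm13. The 2 that rose in THP1 were S100A8 and S100A9. CSF3R, the receptor of granulocyte colony-stimulating factor and a C/EBPα target, went from 1121 and 1056 to 2437 and 2689 counts in Molm13 (log2 change 1.24), with -0.09 in THP1 (adjusted p = 0.154), and BPI rose by 0.86 in Molm13. S100A8 and S100A9, which form the monocyte and neutrophil protein calprotectin, rose in THP1 by 1.77 and 1.87 and in Molm13 by 0.27 and 0.58. The primary granule proteins AZU1 and PRTN3, named after their values were seen, rose in Molm13 by 0.75 and 0.32 and changed by -0.44 and -0.68 in THP1, and the differences between the lines of -1.18 and -0.99 passed the threshold. The other primary granule genes of the list, MPO, CTSG and ELANE, fell in both lines, by 0.56, 0.44 and 0.08 on the log2 scale in Molm13 and by 0.82, 1.25 and 0.18 in THP1. The secondary granule genes LTF, LCN2 and CAMP, which C/EBPε drives, held at most 6 counts in any library.

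Of 27 immediate-early and ERK-responsive genes, the company of EGR1, 12 of 25 tested rose and 6 fell in Molm13 (median 0.25), and 11 of 26 rose and 4 fell in THP1 (median 0.14). With library size alone the THP1 counts were 11 and 5. In the main fits, 33.4% of all genes rose and 33.5% fell in Molm13, and 19% rose and 18.6% fell in THP1. BTG2, an antiproliferative early gene, went from 826 and 822 to 2667 and 2949 counts in Molm13 (log2 change 1.77) and rose by 1.04 in THP1, whereas ZFP36, which destabilises cytokine mRNAs, rose by 0.90 in Molm13 with -0.10 in THP1 (adjusted p = 0.121). PHLDA1 rose by 1.60 in THP1 and 0.74 in Molm13. IER3 went from 4 and 8 to 57 and 58 counts in THP1 (log2 change 3.33), with -0.13 in Molm13 (adjusted p = 0.650). Among the genes that fell, DUSP1 in Molm13 (log2 change -0.70) and DUSP5 in THP1 (-0.80) were DEGs, both named after their values were seen.

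Of 12 inflammatory genes with known C/EBP sites, 4 of 5 tested rose in Molm13 and 5 of 7 in THP1, and none fell in either line at an adjusted p below 0.05 (medians 1.13 and 2.71). The 2 that did not pass in THP1 were HP and PTGS2, and the 1 in Molm13 was HP, all at positive log2 changes. Over all genes tested, 33.4% rose and 33.5% fell in Molm13, and 19% rose and 18.6% fell in THP1. IL1B, the cytokine interleukin 1β, went from 40 and 40 to 136 and 131 counts in Molm13 (log2 change 1.74) and rose by 2.68 in THP1. PTGS2, the inducible cyclooxygenase, rose by 1.13 in Molm13, with 0.48 in THP1 (adjusted p = 0.255). CXCL8, a neutrophil chemokine, went from 68 and 75 to 497 and 441 counts in THP1 (log2 change 2.81) and rose by 0.90 in Molm13. CCL2, a monocyte chemokine, went from 22 and 18 to 394 and 343 counts in THP1 (log2 change 4.29), while Molm13 held at most 2 counts.

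The genes whose levels followed 8 of the members most closely over the 8 libraries were found by Pearson's r of log2(CPM + 0.5). The values of r are a description, since the points share 4 groups and 2 lines. Except for GFI1, r is set largely by the gap between lines. Mean GFI1 was 128 CPM in shCtrl and 109 in shPRMT9 of Molm13, and 162 and 113 CPM in the matching THP1 groups. The closest were DLX4 for CEBPA (r = 0.995), SNRPC for CEBPB (0.997), P2RY6 for CEBPD (0.999), LINC00869 for CEBPE (0.993) and FBXO42 for SPI1 (0.999). They were also ADD1 for GFI1 (0.982), RALGAPA1 for KLF4 (0.996) and EIF2S3 for EGR1 (0.9997). GFI1 had the lowest top value of these 8.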

How the data were processed

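Bulk RNA-seq of polyadenylated RNA was analysed in 8 libraries. The authors deposited raw counts per gene, 1 table per line, with exon length. Per the labels' protocols and the submitters' processing notes, reads were aligned with TopHat2 2.0.8 to hg38, counted with HTSeq 0.11.2 and tested with edgeR 3.30.3. Here counts were fitted with edgeR 4.0.16 (R 4.3.3, limma 3.58.1): filterByExpr, TMM factors, the quasi-likelihood test and Benjamini-Hochberg adjustment over all genes tested. Each line was fitted alone, and all 8 libraries together for the difference between lines and for the control groups. CPM and RPKM use the TMM factors of the 8 libraries, and the DEG limit on RPKM those of each line. Replicates differed by more than sampling noise (chi-square per gene 1.35 to 2.17). Depth was 18720950 to 27356870 counts, which limits genes of a few counts, CEBPE first. The members and lists were chosen with earlier results of these data known. By rule, the 9 members and PRMT9 were named, and of each list the 2 DEGs per line with the largest change and a mean of at least 20 counts. For likeness, genes with a mean of at least 5 CPM were ranked by r. Some genes that these rules pick are not reported here. Simulated counts with known changes were used to check each test. Alternatives were DESeq2 1.42.0, limma voom, other scalings, filters and limits, both lines in 1 fit, a replicate block and leaving out each library.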

Additional observations from a re-analysis of the deposited data

Results flagged for a closer look

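By edgeR's test of the difference itself, knockdown acted unequally in Molm13 and THP1 for 3 of the 9 genes, where 42.2% of the 19288 genes tested differed. The difference, THP1 minus Molm13 on the log2 scale, was 1.19 for CEBPB, which fell in both Molm13 libraries and rose in both THP1 libraries. It was -0.31 for CEBPA, which rose in Molm13 and fell in THP1. It was -0.29 for GFI1, which fell in both lines and farther in THP1. The summed level of the monocytic leukaemia list, mostly LYZ, was higher with knockdown in both lines, and its part in these differences was not tested.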

How the results depend on the processing

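Most of the results kept their direction and their side of the threshold under the other scalings, filters, tools and left-out libraries. The count of members that were DEGs in Molm13, 2, was 0 with a fold limit of 2, and in THP1 it ran from 0 to 1 over the left-out libraries. The DEGs over all genes were 1302 in Molm13 and 400 in THP1 with a fold limit of 2, against 3744 and 1013, and 1544 in THP1 without the RPKM minimum. Changes that reversed were all without a call: over the left-out libraries, CEBPE in THP1 ran from -0.5962 to 0.08197 (above 0 without library 1 of shCtrl), the difference between the lines of KLF4 from -0.008445 to 0.1797 (below 0 without library 1 of Molm13 shCtrl) and that of EGR1 from -0.007637 to 0.1343 (below 0 without library 2 of THP1 shCtrl). The cause was not tested. The numbers 1 and 2 are not said to pair libraries, and deviations of same-numbered libraries correlated at -0.0822 in Molm13 and -0.01 in THP1. With a replicate block the members counted 4 higher and 3 lower in each line, as without it, and 10855 and 6054 genes passed. With 2 libraries per group, the depth of CEBPE and EGR1 in THP1 limits what could be detected.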
